A study of Mus musculus with 15 samples.

Results

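A set of 10 genes of glycolysis were followed through every readout of a histone mark study in mouse embryonic stem cells: Hk1, Hk2, Gpi1, Aldoa, Tpi1, Gapdh, Pgk1, Pgam1, Eno1 and Ldha. They were chosen by name, as enzymes of glycolysis, with earlier results of these data known. They are 10 of the 22035 genes in the gene table, with 14 of its 28373 transcript rows. The table of H3K4me3 windows of 1 kb held 61 windows for these genes, of 74866 in all. Of 98085 bins of 2 kb, which the authors describe as random, 8 touched a glycolysis gene, and those 8 fell in only 5 of the genes (Gpi1, Hk1, Hk2, Pgam1 and Tpi1).

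All 15 libraries came from the same male, wildtype line, TT2, which was derived from the inner cell mass of a C57BL/6 x CBA blastocyst. There was no treatment or mutant, and groups differed only in the antibody and in the number of sorted cells. Native ChIP-seq, in which chromatin is not crosslinked, was run for H3K9me3 (1000000, 100000 and 10000 cells once each, and libraries a, b and c of 1000 cells), H3K27me3 (100000, 10000 and 1000 cells once each), H3K4me3 (100000, 10000 and 5000 cells once each) and histone H3 of any modification (panH3, libraries a and b of 1000 cells). RNA was sequenced once, from 1000 cells after removal of ribosomal RNA. Whether libraries a, b and c are separate cultures is not in the labels, and the p-values below therefore rest on a spread that may be technical.

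Glycolysis splits glucose into pyruvate in the cytosol, and lactate dehydrogenase turns pyruvate into lactate while regenerating NAD+. Hexokinase traps glucose as glucose-6-phosphate, Gpi1 turns that into fructose-6-phosphate, and aldolase cuts the doubly phosphorylated sugar into a pair of triose phosphates that Tpi1 interconverts. Gapdh, Pgk1, Pgam1 and Eno1 then carry the triose through oxidation, transfer of phosphate to ADP, shift of the remaining phosphate, and dehydration. Pluripotent stem cells are known for a high rate of glycolysis. H3K4me3 marks the start sites of active genes, H3K27me3 is laid down by Polycomb complexes over silent developmental genes, and H3K9me3 marks heterochromatin.

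The labelled cell type was checked in the RNA library. All 8 stem cell markers tested (Pou5f1, Nanog, Sox2, Zfp42, Esrrb, Utf1, Dppa5a and Tdgf1) lay between 53.6 and 221.81 RPKM, reads scaled to exon length and depth. Of 8 fibroblast markers, a check for feeder cells, 7 were under 1 RPKM and Thy1 was at 1.79. Col3a1, Postn, Dcn and Lum were listed at 0. None of 8 markers of differentiated lineages reached 1 RPKM. Depth, recovered from the steps of the RPKM values, was 13.04 to 45.5 M reads in the libraries of the bin table, and 16.6, 1.07 and 1.86 M reads for H3K4me3 at 100000, 10000 and 5000 cells. A single read was worth 0.0602, 0.938 and 0.539 RPKM in those 3 H3K4me3 libraries. The depth of the RNA values and of the H3K27me3 values in the gene table could not be recovered.

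The promoters come first, because the H3K4me3 values below differ between alternative starts of the same gene. The sequences are from RefSeq on GRCm38.p6 (the deposited tables use mm9), run 5′ to 3′ on the strand of the gene, and cover 250 bases before to 50 bases after a start. All 10 genes were found there, with 16 starts. In the first 6 sequences capitals mark CG dinucleotides. Aldoa is shown at the start NM_007438 (chr7:126799205-126799504, minus strand) and at the start NM_001177308 upstream of it (chr7:126800398-126800697, minus strand). Hk1 is shown at the start NM_001146100 (chr10:62340372-62340671, minus strand) and at the start NM_010438 far upstream (chr10:62379859-62380158, minus strand). Pgk1 (chrX:106186850-106187149, plus strand) is set beside its testis isozyme Pgk2 (chr17:40208560-40208859, minus strand), whose RNA was listed at 0.

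Aldoa NM_007438: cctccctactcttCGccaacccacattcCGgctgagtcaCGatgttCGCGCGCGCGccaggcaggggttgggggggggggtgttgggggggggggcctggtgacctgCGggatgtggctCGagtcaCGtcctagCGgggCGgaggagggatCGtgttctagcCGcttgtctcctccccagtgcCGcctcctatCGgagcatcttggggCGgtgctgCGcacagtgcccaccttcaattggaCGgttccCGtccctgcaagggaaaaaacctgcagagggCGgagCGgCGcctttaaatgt
Aldoa NM_001177308: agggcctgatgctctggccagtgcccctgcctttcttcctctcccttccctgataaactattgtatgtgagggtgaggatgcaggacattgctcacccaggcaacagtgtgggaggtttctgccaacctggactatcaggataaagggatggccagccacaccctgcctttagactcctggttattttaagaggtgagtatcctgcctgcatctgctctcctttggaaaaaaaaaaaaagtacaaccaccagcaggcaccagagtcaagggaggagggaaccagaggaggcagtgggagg
Hk1 NM_001146100: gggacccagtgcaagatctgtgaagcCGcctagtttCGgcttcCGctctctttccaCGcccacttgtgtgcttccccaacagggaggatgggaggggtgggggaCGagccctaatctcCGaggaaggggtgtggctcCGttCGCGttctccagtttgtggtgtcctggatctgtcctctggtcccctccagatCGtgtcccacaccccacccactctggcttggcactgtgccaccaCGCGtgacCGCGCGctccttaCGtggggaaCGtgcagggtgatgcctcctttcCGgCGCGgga
Hk1 NM_010438: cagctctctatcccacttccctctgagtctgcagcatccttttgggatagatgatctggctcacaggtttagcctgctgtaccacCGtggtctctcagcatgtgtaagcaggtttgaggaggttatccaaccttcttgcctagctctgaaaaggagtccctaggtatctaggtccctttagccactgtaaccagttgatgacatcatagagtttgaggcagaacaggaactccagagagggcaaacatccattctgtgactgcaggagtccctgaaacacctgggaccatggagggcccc
Pgk1: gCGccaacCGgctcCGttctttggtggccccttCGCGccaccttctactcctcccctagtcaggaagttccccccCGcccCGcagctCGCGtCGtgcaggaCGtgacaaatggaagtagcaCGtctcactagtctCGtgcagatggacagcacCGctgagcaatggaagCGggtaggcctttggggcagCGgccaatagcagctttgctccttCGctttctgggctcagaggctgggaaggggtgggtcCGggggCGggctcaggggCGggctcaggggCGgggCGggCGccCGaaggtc
Pgk2: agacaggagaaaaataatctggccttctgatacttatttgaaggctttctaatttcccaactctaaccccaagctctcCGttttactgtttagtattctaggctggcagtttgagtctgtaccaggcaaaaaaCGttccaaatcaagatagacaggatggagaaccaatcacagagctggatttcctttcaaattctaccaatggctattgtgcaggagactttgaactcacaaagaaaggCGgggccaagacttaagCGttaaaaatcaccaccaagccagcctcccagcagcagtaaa

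The Aldoa start NM_007438 has 24 CG dinucleotides and the upstream start has 0. The Hk1 start NM_001146100 has 20 and the upstream start has 1, while Pgk1 has 24 and Pgk2 has 4. Over the 16 starts the median was 22 CG dinucleotides and 64.2% G or C, against 7 and 52.7% over all 32851 mouse promoters of the same length. The 13 promoters of 9 isozymes known from restricted tissues had a median of 4 CG dinucleotides. Starts of the same gene can overlap, as those of Aldoa and Eno1 do, so the 16 are not independent sequences.

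A total of 6 motifs was searched on both strands. TATAAA was in 0 of the 16 promoters and in 13.6% of all promoters. GGGCGG, the letters of a GC box, was in 10 of 16 (35.7% of all promoters), and CCAAT was in 7 of 16 (37.4%). ACGTG and GCGTG, the core letters known for hypoxia-inducible factors, were in 12 of 16 as either form, against 43.8% of all promoters. The palindrome CACGTG, which overlaps ACGTG on both strands, was in 1 of 16 (7.15%). Apart from TATAAA and CCAAT the motifs are rich in G and C, as the members' promoters are, and the part of base composition in the counts was not tested. A match is a description of the letters and not a bound site. The promoter with the most such cores is that of Ldha at the start NM_010699 (chr7:46845554-46845853, plus strand), in which capitals mark ACGTG and GCGTG on either strand. It holds ACGTG 5 times, counting both strands of 2 CACGTG palindromes, and GCGTG 2 times.

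Ldha NM_010699: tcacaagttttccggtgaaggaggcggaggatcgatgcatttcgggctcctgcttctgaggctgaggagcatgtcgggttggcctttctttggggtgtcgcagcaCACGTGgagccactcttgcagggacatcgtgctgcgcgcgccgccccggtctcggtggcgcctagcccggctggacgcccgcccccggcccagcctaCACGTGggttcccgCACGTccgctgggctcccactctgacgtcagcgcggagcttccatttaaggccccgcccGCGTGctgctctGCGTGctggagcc

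RNA of 9 of the 10 genes was at 10 RPKM or above, a level that 18% of all genes reached, and 4 of 10 were in the top 5% of genes, with 5.01% of genes at or above that cut of 27.11 RPKM. The median of the 10 was 25.98 RPKM, against 1.02 over all genes. These are values of 1 library, with no replicate and no known depth, so neighbours in the order cannot be separated. In a bulk library fewer cells of a type and less RNA per cell cannot be told apart.

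The last enzyme of the list led in RNA. Ldha, the muscle-type subunit of lactate dehydrogenase (mm9 chromosome 7, 54101172 to 54110996, plus strand), was at 117.21 RPKM, the 99.6th percentile of genes. Aldoa, the ubiquitous aldolase (chromosome 7, 133938744 to 133943960, minus strand), followed at 105.09 RPKM. The next member was Eno1, the enolase of most tissues (chromosome 4, 149611312 to 149622976, plus strand), at 47.22 RPKM.

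A middle group lay close together between 19.84 and 27.97 RPKM. Tpi1, triosephosphate isomerase (chromosome 6, 124760608 to 124764312, minus strand), was at 27.97 RPKM and Gapdh, glyceraldehyde-3-phosphate dehydrogenase (chromosome 6, 125111872 to 125115600, minus strand), at 26.02 RPKM. Hk2, a hexokinase that binds mitochondria (chromosome 6, 82675024 to 82724448, minus strand), was at 25.94 RPKM. Gpi1, glucose-6-phosphate isomerase (chromosome 7, 34986344 to 35015324, minus strand), was at 24.00 RPKM, and Pgam1, phosphoglycerate mutase (chromosome 19, 41986360 to 41993156, plus strand), at 19.84 RPKM. Within this group the order carries no weight.

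Pgk1 and Hk1 were lowest. Pgk1, phosphoglycerate kinase (chromosome X, 103382464 to 103399040, plus strand), was at 13.23 RPKM, the 86.5th percentile. Hk1, the hexokinase known from brain and red cells (chromosome 10, 61731600 to 61842656, minus strand), was at 2.86 RPKM, the 62.0th percentile, and is the only member under 10 RPKM. Large start coordinates in the gene table (above 67108864) are all multiples of 8 (15389 of 15389 rows), so such positions are rounded.

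Reads of a multicopy family can be split or lost in counting. RefSeq names pseudogenes or retrogenes after 6 of the 10 genes: 4 for Aldoa, 3 each for Gapdh, Pgk1 and Ldha, 2 for Pgam1 and 1 for Eno1. How the authors treated reads that match several places is not given in the sources used here, so RNA levels of these 6 genes are uncertain. The other 4 genes have no copy named that way.

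At each step the member held most of the RPKM summed over the isozymes reported here, with Hk1 as the exception. Hk2 made up 89.4% of that hexokinase sum and Hk1 9.85%, with Hk3 at 0.20 RPKM and Hkdc1 at 0.03. Aldoa held 98.8% beside Aldoc, known from brain, at 1.26 RPKM. Gapdh held 91.6% beside the sperm form Gapdhs at 2.40 RPKM. Pgk1 was the whole of its step, since Pgk2 was listed at 0.

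Lower in the pathway Pgam1 held 93.8% beside the muscle form Pgam2 at 1.31 RPKM. Eno1 held 87.1%, with muscle Eno3 at 5.86 RPKM and neuronal Eno2 at 1.15 RPKM. Lactate dehydrogenase was the most mixed of the members' steps: Ldha held 72.6% and Ldhb, the heart-type subunit, was at 43.54 RPKM, or 26.96%, while testis Ldhc was at 0.74 RPKM. At the steps with no member, Pfkp led phosphofructokinase at 25.20 RPKM over Pfkl at 6.75 and Pfkm at 2.84. Pkm2, the pyruvate kinase gene, was at 265.87 RPKM, above all 10 members, with Pklr of liver and red cells at 0.32 RPKM.

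**Figure D1:**
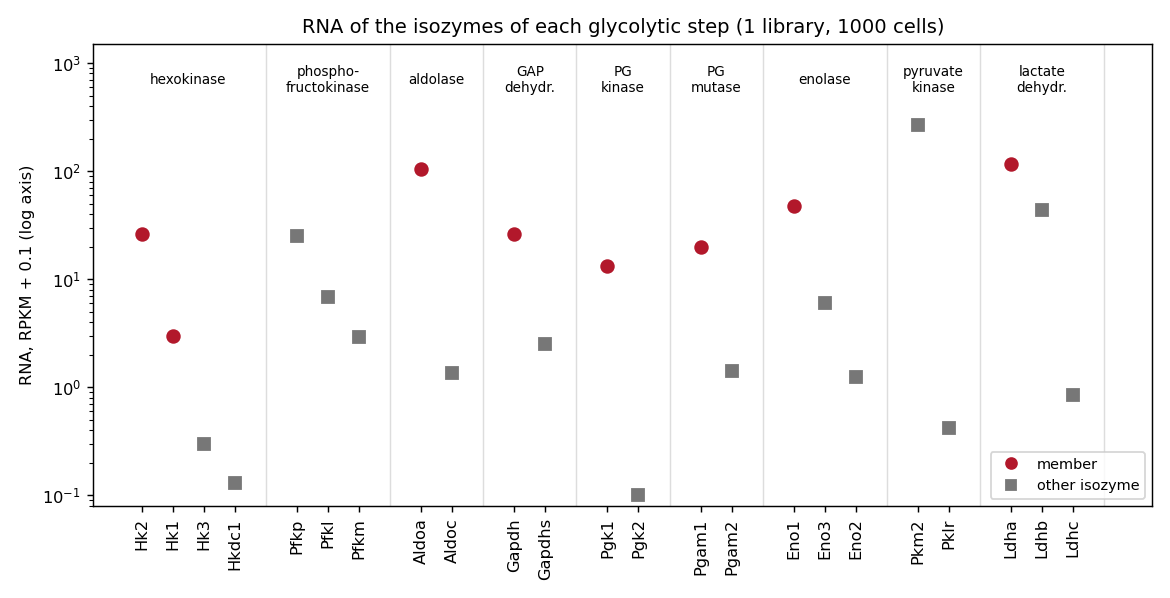
RNA of each isozyme, as RPKM + 0.1 on a log axis, grouped by enzymatic step (GAP dehydr., glyceraldehyde-3-phosphate dehydrogenase; PG, phosphoglycerate). Circles are the members and squares other isozymes of 1 library; members range from Hk1 at 2.86 RPKM to Ldha at 117.21, and the point at the floor (Pgk2) is listed at 0.

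Where a gene has several transcript rows their RNA values are given by row. The 3 Aldoa rows were at 105.09 (NM_001177308), 101.28 (NM_007438) and 96.28 RPKM (NM_001177307). The 2 Ldha rows were at 117.21 (NM_010699) and 104.75 RPKM (NM_001136069). The 2 Hk1 rows lay further apart: NM_001146100 was at 2.86 RPKM and NM_010438, which starts far upstream, at 0.31 RPKM. The exon lengths of the Hk1 rows were 4157 and 4100 bp. Those of the Aldoa rows, in the order given, were 1461, 1511 and 1588 bp, and those of the Ldha rows 1623 and 1816 bp. In Aldoa and Ldha RPKM fell as exon length rose. Their rows may therefore count the same reads over different lengths, and their order does not tell which start is used.

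The rest of the pathway was read from lists of genes. Of 17 other enzymes of glycolysis 4 were at 10 RPKM or above, and they were Pkm2, Ldhb at 43.54 RPKM, Pfkp and Adpgk, an ADP-dependent glucokinase, at 21.41 RPKM. A list of transport and regulation held 17 genes, of glucose and lactate transport, fructose-2,6-bisphosphate enzymes and pyruvate entry. Of these 8 reached 10 RPKM, led by the glucose transporters Slc2a3 at 73.68 RPKM and Slc2a1 at 52.09 RPKM. Pdha1 and Pdhb, subunits of pyruvate dehydrogenase, came next at 25.07 and 23.40 RPKM. The lowest of that list were the transporters Slc2a2 and Slc16a7, both at 0.07 RPKM. None of 6 gluconeogenic genes reached 10 RPKM: Pck2 was at 5.62 RPKM, Pcx at 4.31, and G6pc, which releases free glucose in liver, was listed at 0. Of 8 regulators 3 reached it, Mycn at 18.87 RPKM, Hif1a at 16.11 and Epas1 at 13.06.

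H3K4me3 was at the start sites of all 10 genes. In the library of 100000 cells each gene's strongest window was at 2 RPKM or above, as in 43.7% of all genes, and the median of the 10 was 6.62 RPKM against 1.39 over all genes. The window with the highest mean over the 3 libraries stands for each gene, here and for the background, and genes with many windows have more to choose from (1 for Pgam1, 13 for Hk1). Intervals in this section are exact 95% Poisson intervals of the reads in the window and cover counting error only.

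Gapdh had the highest H3K4me3 of the members in each library. Its window, centred 23 bp upstream of the start, was at 11.68 RPKM (194 reads, 10.1 to 13.4) in 100000 cells, at 92.81 RPKM (99 reads, 75.4 to 113.0) in 10000 cells and at 45.24 RPKM (84 reads, 36.1 to 56.0) in 5000 cells. Eno1 followed at 10.54 RPKM (175 reads), 83.44 RPKM (89 reads) and 44.70 RPKM (83 reads). The intervals of Gapdh and Eno1 overlapped in each of the 3 libraries, so their order is not resolved.

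Ldha was at 9.94, 60.94 and 24.24 RPKM in 100000, 10000 and 5000 cells, and Gpi1 at 7.83, 42.19 and 14 RPKM. Aldoa was at 7.47, 50.63 and 25.31 RPKM, and Pgam1 at 5.78, 54.38 and 35.01 RPKM. Pgam1 was thus 6th of 10 in the deepest library and 3rd in the library of 5000 cells, where its interval (27.02 to 44.6) overlapped that of Ldha (17.7 to 32.4). Hk2 was at 4.82, 32.81 and 16.70 RPKM in a window centred 1091 bp downstream of its start.

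The lowest 3 were the same genes in each library. Tpi1 was at 3.73, 19.69 and 6.46 RPKM, Hk1 at 3.43, 21.56 and 3.77 RPKM, and Pgk1 at 2.89, 25.31 and 5.92 RPKM. In 5000 cells these values rest on 12, 7 and 11 reads, and their intervals overlap. The highest of the 3 also overlapped the next gene in each library. In 100000 cells these were Tpi1 (2.86 to 4.79) and Hk2 (3.82 to 6.00). In 10000 cells they were Pgk1 (16.7 to 36.8) and Hk2 (22.9 to 45.6), and in 5000 cells Tpi1 (3.34 to 11.3) and Gpi1 (9.15 to 20.5). The 3 genes are therefore not set apart by the counts. Across the 10 genes the Spearman correlation was 0.90 between the libraries of 100000 and 10000 cells and 0.84 between those of 100000 and 5000 cells. With RNA it was 0.62, 0.48 and 0.53 in 100000, 10000 and 5000 cells. These are descriptions over 10 genes that share their libraries. Pgk1 lies on chromosome X, which is unpaired in a male line, and its values were not scaled for copy number. The nearest bins at either side of Pgk1 held 0.19 to 0.28 RPKM of panH3 in 1000 cells, against a mean of 0.414 over all bins. The part of copy number in the low H3K4me3 of Pgk1 was not tested.

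**Figure D2:**
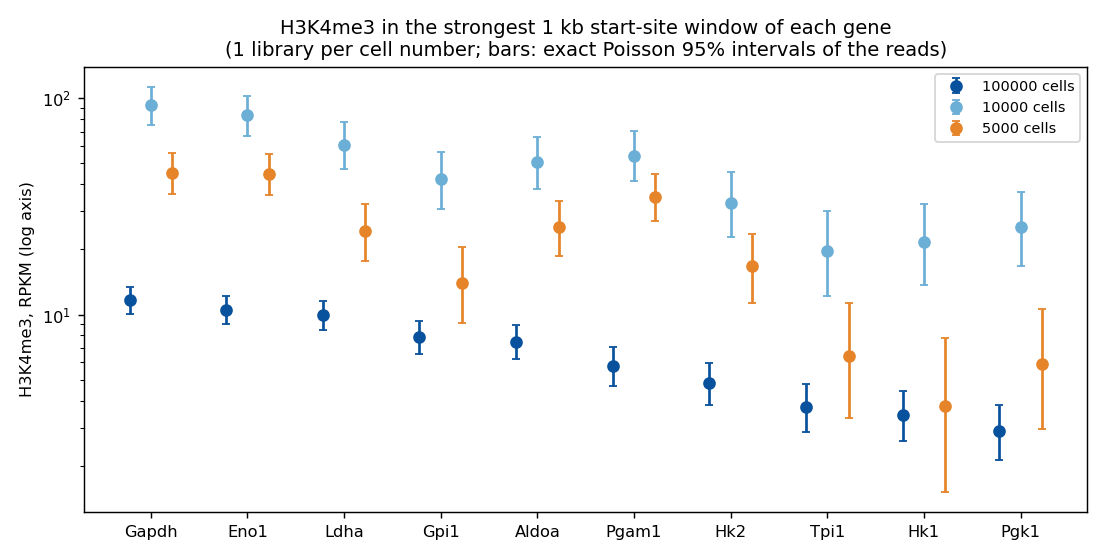
H3K4me3 (RPKM, log axis) in the 1 kb start-site window with the highest mean over the 3 libraries, for each of the 10 genes. Genes are ordered by the library of 100000 cells. Colours are cell numbers with 1 library each, and bars are exact 95% Poisson intervals of the reads. Values at 10000 cells are the highest of the 3 for each gene, and those of Tpi1, Hk1 and Pgk1 are lowest in all 3 libraries.

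All 10 genes were over 1 log2 unit higher at 10000 than at 100000 cells on the log2(RPKM + 0.1) scale, where 57.6% of all genes were. Among genes of at least 2 RPKM at 100000 cells, which the members all are, the share was 94.3%. At 5000 cells 7 of 10 were over 1 log2 unit higher than at 100000 cells, with 41.5% of all genes and 63.2% of genes of at least 2 RPKM. Pgk1 was at the threshold, at 1.0096 on 11 reads, and with a pseudocount of 1 it was at 0.83, so that 6 of 10 genes and 28.3% of all genes were past it. No member was over 1 log2 unit lower at either number, with 25.3% of all genes lower at 10000 and 18.1% at 5000 cells. Those shares were 0.391% and 1.16% among genes of at least 2 RPKM, and 1.63% and 1.18% of all genes with a pseudocount of 1. At 5000 cells Gpi1, Tpi1 and Hk1, which were not past 1 with either pseudocount, differed by 0.83, 0.78 and 0.13. Single values depend on the window chosen. Hk1 was at 3.43 and 3.77 RPKM in 100000 and 5000 cells, but at 2.95 and 5.39 in the window nearest NM_001146100. Hk2 was at 4.82 and 16.70 RPKM, but at 4.94 and 10.23 at its start. With the mean over a gene's windows the counts stayed at 10 and 7 of 10 (54.8% and 37.6% of all genes). The median differences of the members were 2.74 and 1.51, beside 2.33 and 1.22 over genes of at least 2 RPKM. Each comparison rests on 1 library per cell number and depth fell from 16.6 to 1.07 M reads at the first step, so there is no test, and cell number and library cannot be told apart. The table holds no window above 49.21 RPKM at 100000 cells, 99.38 at 10000 and 49.55 at 5000, so the Gapdh values of 92.81 and 45.24 RPKM stand just under its upper limits.

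Alternative starts of 1 gene differed in H3K4me3. At Aldoa the window at the NM_007438 start was at 7.47 RPKM (124 reads, 6.21 to 8.90) in 100000 cells, 50.63 RPKM (54 reads) in 10000 cells and 25.31 RPKM (47 reads) in 5000 cells. The window at NM_001177308, 1192 bp upstream, was at 1.99 RPKM (33 reads, 1.37 to 2.79), 8.44 RPKM (9 reads) and 3.77 RPKM (7 reads). The intervals of these windows did not overlap in any of the 3 libraries, and the start with less H3K4me3 is the one whose promoter has no CG dinucleotide. These windows do not overlap each other. Between genes the CG count did not follow the extremes of H3K4me3 in 100000 cells. By the window that stands for each gene, Gapdh, with 12 CG dinucleotides, was highest at 11.68 RPKM. Pgk1, with 24, was lowest at 2.89 RPKM. A relation of CG count to H3K4me3 was not tested.

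At Hk1 the difference between starts was of the same kind. The window 122 bp from the NM_001146100 start was at 2.95 RPKM (49 reads, 2.18 to 3.90) in 100000 cells, 16.88 RPKM (18 reads) in 10000 cells and 5.39 RPKM (10 reads) in 5000 cells. The window at NM_010438 was at 0.66 RPKM (11 reads, 0.331 to 1.19) in 100000 cells and at 1 read in each of the other libraries, 0.94 and 0.54 RPKM. The intervals did not overlap at 100000 or 10000 cells, and did at 5000 cells. The RNA row of the same upstream start was the lower of the Hk1 rows, and its promoter has 1 CG dinucleotide. At Aldoa the RNA rows do not separate the starts. The row of the upstream start NM_001177308 was at 105.09 RPKM over 1461 bp of exons. That of NM_007438 was at 101.28 RPKM over 1511 bp, so the difference may come from length alone.

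At Ldha the 2 starts were both marked. The window at NM_010699 was at 8.25 RPKM (137 reads, 6.93 to 9.75), 51.56 RPKM (55 reads) and 18.31 RPKM (34 reads) in 100000, 10000 and 5000 cells. The window at NM_001136069, centred 1329 bp downstream, was at 4.76 RPKM (79 reads, 3.77 to 5.93), 15.94 RPKM (17 reads) and 10.77 RPKM (20 reads). Their intervals overlapped only at 5000 cells (12.7 to 25.6 against 6.58 to 16.6).

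**Figure D3:**
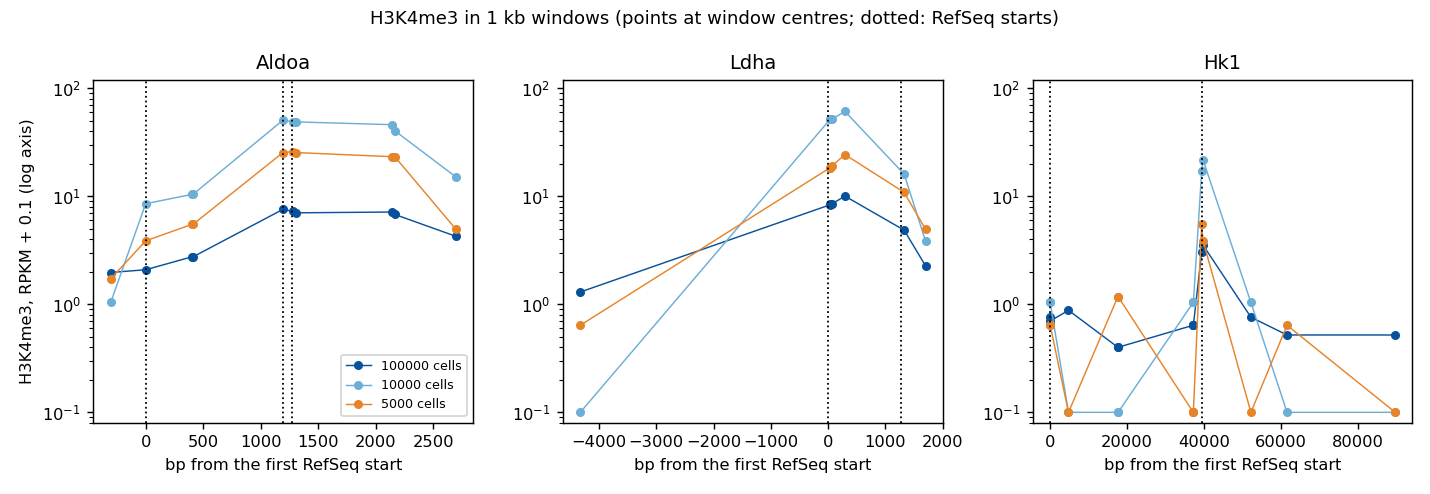
H3K4me3 (RPKM + 0.1, log axis) in the 1 kb windows of Aldoa, Ldha and Hk1 against the distance of the window's centre from the gene's first RefSeq start; points are windows, colours cell numbers and dotted lines RefSeq starts. The first start of Aldoa and of Hk1 is lower than a later one at each cell number, and the first start of Ldha is higher than the later one.

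Along the genes H3K4me3 fell back to low levels away from the starts. In Eno1 the windows centred 6283 to 10362 bp downstream of the start held 0.48 to 0.78 RPKM in 100000 cells, against 7.89 RPKM at the start itself and 10.54 RPKM at 497 bp downstream. In Gapdh the window 3055 bp downstream was at 1.32 RPKM and in Gpi1 the window 19928 bp downstream at 0.90 RPKM. Tpi1 was flatter: 2.65 RPKM at the start, 3.73 at 136 bp, 3.25 at 1224 bp and 1.57 RPKM at 2408 bp. In Hk2 the window 1091 bp downstream, at 4.82 RPKM, was close to that at the start, 4.94 RPKM. At 10000 cells the downstream window was lower than the start (32.81 against 38.44 RPKM). At 5000 cells it was higher (16.70 against 10.23 RPKM).

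The isozymes of restricted tissues had less H3K4me3 than the member of their step. In 100000 cells Ldhc was at 0.12 RPKM, Gapdhs at 0.36, Pgk2 at 0.48 and Aldoc at 1.20 RPKM, against 2.89 to 11.68 for the members named beside them. Eno2, at 3.31 RPKM with RNA of 1.15 RPKM, was the highest of the isozymes reported with RNA under 2 RPKM. Ldhb, at 11.80 RPKM (196 reads), was above Ldha at 9.94 RPKM (165 reads) in 100000 cells. It was below Ldha in 10000 cells (48.75 against 60.94 RPKM) and equal to it in 5000 cells (24.24 RPKM each), so their order is not resolved. Further values here are from 100000 cells. The median of the 17 other enzymes was 1.20 RPKM and that of the 17 transport and regulation genes 2.95. It was 0.96 for the 6 gluconeogenic genes and 4.39 RPKM for the 8 regulators. In the same order 8, 11, 2 and 7 of them were at 2 RPKM or above.

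The deposited H3K27me3 values of the gene table need a note on where they lie. Rows of the same gene that share the lower coordinate and differ by over 2000 bp at the other end had identical H3K27me3 in 515 of 515 pairs on the plus strand and 918 of 918 on the minus strand. Rows that share the higher coordinate had identical values in 13 of 889 and 2 of 514 pairs. In genes over 10000 bp long the values also followed the 2 kb bin centred within 500 bp of the lower coordinate (Spearman 0.98 on the plus strand, 305 rows, and 0.95 on the minus strand, 341 rows) more than the bin at the higher coordinate (0.60 and 0.62). The value of a minus-strand gene is therefore taken here as lying at its 3′ end, although the header names the start site. This applies to Tpi1, Hk1, Gapdh, Aldoa, Hk2 and Gpi1.

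H3K27me3 was low at the start sites of the 4 plus-strand genes. Eno1 was at 0.09, 0.11 and 0.11 RPKM in 100000, 10000 and 1000 cells, Pgk1 at 0.06, 0 and 0.13 RPKM, and Pgam1 at 0.12, 0.02 and 0.28 RPKM. Ldha was at 0.04, 0.21 and 0.25 RPKM at the start NM_001136069 and at 0.01, 0.15 and 0.14 RPKM at NM_010699. The medians of the 4 genes were 0.075, 0.065 and 0.19 RPKM, against 0.30, 0.31 and 0.31 over all plus-strand genes. Pgk1, on the unpaired X chromosome of a male line, was not scaled for copy number. For comparison the differentiated-lineage markers, 6 of 8 of which are on the plus strand, had a plus-strand median of 1.94 RPKM in 100000 cells.

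At the 3′ ends of the other 6 genes Hk1 was highest in 100000 and 10000 cells and Tpi1 in 1000 cells. Hk1 was at 0.52, 0.56 and 0.22 RPKM in 100000, 10000 and 1000 cells. The medians over all genes of both strands were 0.28, 0.28 and 0.31 RPKM. They mix start sites and 3′ ends and are not a matched background for these 6 genes. Gapdh was at 0.19, 0.09 and 0.21 RPKM, Tpi1 at 0.16, 0.26 and 0.40, Aldoa at 0.11, 0.16 and 0.13, Gpi1 at 0.10, 0.21 and 0.09, and Hk2 at 0.06, 0 and 0.13 RPKM. No member reached 1 RPKM in 100000 cells, a level at which 2104 of 22035 genes were listed. Values at these levels rest on few reads of unknown number.

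Between cell numbers 1 of 10 genes was over 1 log2 unit higher at 10000 than at 100000 cells (1.63% of all genes) and 1 of 10 at 1000 cells (5.56%); both times it was Ldha, from 0.04 RPKM. No member was over 1 log2 unit lower, with 2.82% and 3.78% of all genes lower. With 1 library per cell number there is no test.

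The metabolic lists (transport and regulation genes, gluconeogenic genes, regulators and other enzymes) were read at true start sites, on the plus strand. H3K27me3 there was highest at Mlxipl, a carbohydrate-responsive transcription factor, at 1.47, 1.74 and 1.10 RPKM in 100000, 10000 and 1000 cells. G6pc had 1.20, 1.11 and 0.93 RPKM. Slc16a3, a lactate exporter, had 1.06, 1.32 and 0.74 RPKM together with 7.23 RPKM of H3K4me3 in 100000 cells and RNA of 11.88 RPKM. Slc2a2, the liver and islet glucose transporter, had 1.00, 1.00 and 0.44 RPKM.

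H3K9me3 was compared with panH3 in the libraries of 1000 cells, the only groups with replicates. In all 8 bins that touch a glycolysis gene H3K9me3 fell below panH3 (limma on log2(RPKM + 0.1), two-sided, adjusted p from 5.00e-06 to 0.0019 over 93575 bins). By that test 24.7% of all bins were lower and 15.2% higher. Among bins in any gene 45.6% were lower and 7.19% higher, and among bins in genes transcribed at 10 RPKM or more 75.6% were lower and 3.87% higher. Of the 8 bins 6 are in genes of that class and 2 are in Hk1, at 2.86 RPKM. The difference between the 8 bins and those shares was not tested. Averaged over the 8 bins H3K9me3 was 0.120 RPKM ± 0.0186 (SD, n = 3 libraries) and panH3 0.510 RPKM ± 0.0636 (SD, n = 2).

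The bin of Tpi1 closest to its start (mm9 chromosome 6, 124762001 to 124764000, centred 1312 bp downstream) held 0.03, 0.10 and 0.11 RPKM of H3K9me3 in libraries a, b and c and 0.42 and 0.59 RPKM of panH3 in libraries a and b. The log2 difference was -1.77 with an SE of 0.28. The neighbouring bin (124760001 to 124762000), which also touches Spsb2, held 0.09, 0.20 and 0.18 RPKM of H3K9me3 against 0.67 and 0.85 RPKM of panH3, a log2 difference of -1.76 with an SE of 0.26. These were the lowest differences of the 8.

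In Pgam1 the bin from 41990001 to 41992000 of chromosome 19 held 0.17, 0.07 and 0.11 RPKM of H3K9me3 and 0.55 and 0.62 RPKM of panH3, a difference of -1.68 with an SE of 0.26. In Gpi1 the bin nearer the start (chromosome 7, 35010001 to 35012000) held 0, 0.11 and 0.18 RPKM against 0.46 and 0.50 RPKM, and the bin further in (34988001 to 34990000) 0.06, 0.17 and 0.11 RPKM against 0.55 and 0.38 RPKM. Their differences were -1.68 and -1.42, with SEs of 0.32 and 0.28. The groups overlapped in none of these bins.

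The hexokinase bins had the smallest differences. Hk2 (chromosome 6, 82708001 to 82710000) held 0.17, 0.14 and 0.11 RPKM of H3K9me3 against 0.40 and 0.51 RPKM of panH3, a difference of -1.21 with an SE of 0.26. Hk1 held 0.11, 0.10 and 0.09 RPKM against 0.25 and 0.55 RPKM in the bin from 61736001 to 61738000 of chromosome 10, a difference of -1.26 with an SE of 0.28. In its bin from 61780001 to 61782000 it held 0.17, 0.20 and 0.11 RPKM against 0.42 and 0.44 RPKM, a difference of -1.04 with an SE of 0.26. Without panH3 library b the first of these Hk1 bins was at -0.81 with an adjusted p of 0.13 by limma, since panH3 library a held 0.25 RPKM there. H3K9me3 was below panH3 in every library in all 8 bins, as in 34.5% of all bins tested.

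**Figure D4:**
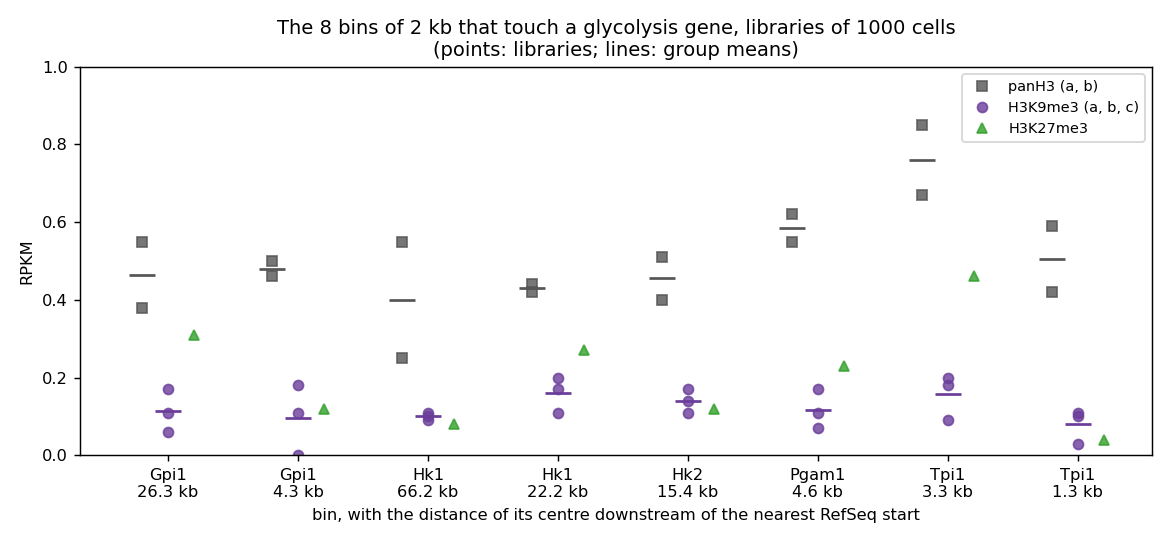
RPKM of panH3 (squares), H3K9me3 (circles) and H3K27me3 (triangles) in the 8 bins of 2 kb that touch a glycolysis gene, libraries of 1000 cells; lines are group means, and the label gives the distance of the bin's centre downstream of the nearest RefSeq start. H3K9me3 lies between 0 and 0.20 RPKM in each library and panH3 between 0.25 and 0.85 RPKM.

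The 5 genes without a bin were read only from the nearest bin at either side, 3312 to 71872 bp away and in part inside other genes. Of those 10 bins 8 were lower in H3K9me3 than panH3 and 0 higher by the same test. The exceptions were the bin downstream of Ldha, which touches Ldhc (difference -0.40, limma adjusted p 0.18), and the bin downstream of Pgk1, which touches Taf9b (0.04, adjusted p 0.91). Among other lists 7 of 9 bins of the other glycolytic enzymes reported here were lower and 0 higher. For transport and regulation genes 15 of 28 were lower and 1 higher. For regulators 4 of 5 were lower and 0 higher, and for gluconeogenic genes 0 of 2 were lower and 1 higher.

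H3K9me3 in the same bins was followed from 1000000 to 1000 cells. No member bin had a slope on log10 cell number that passed the limma test (adjusted p from 0.33 to 0.996 over 93569 bins), and of all bins 0% rose and 0.00107%, a single bin, fell. At an unadjusted p under 0.05 the count was 5173 rising and 1875 falling bins, 3 of them member bins that rose. All 8 slopes were above 0 with every library in, as were 82.2% of those in bins in genes at 10 RPKM or more and 50.3% of all slopes. Without the library of 1000000 cells 7 of 8 were above 0, and that of the Hk2 bin was -0.31. The mean of the 8 bins was 0.259 RPKM at 1000000 cells, 0.178 at 100000, 0.106 at 10000 and 0.10, 0.136 and 0.125 in libraries a, b and c of 1000 cells. In 7 of the 8 bins the library of 1000000 cells was above all 3 libraries of 1000 cells, as in 25.7% of all bins.

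The steepest slope was that of the Tpi1 bin nearest the start, 0.47 log2 units per 10-fold more cells with an SE of 0.14. With voom weights on the recovered reads it was 0.79 and passed the limma test (adjusted p 0.015), the only call among the 8 under that alternative, which called 2.2% of all bins rising and 0.0876% falling. Without the library of 1000000 cells it was 0.26 (adjusted p 0.93), and the steepest was the Gpi1 bin nearer the start, at 0.35 (adjusted p 0.925). The Tpi1 bin nearest the start held 0.42 RPKM (38 reads) at 1000000 cells, 0.17 RPKM (7 reads) at 100000 and 0.07 RPKM (2 reads) at 10000. The flattest was Hk2, at 0.20, 0.07 and 0.04 RPKM, with a slope of 0.02 and an SE of 0.14. The library of 1000000 cells was also the deepest, at 45.5 M reads, and only 1 library stands for each cell number above 1000, so cell number and library cannot be told apart.

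**Figure D5:**
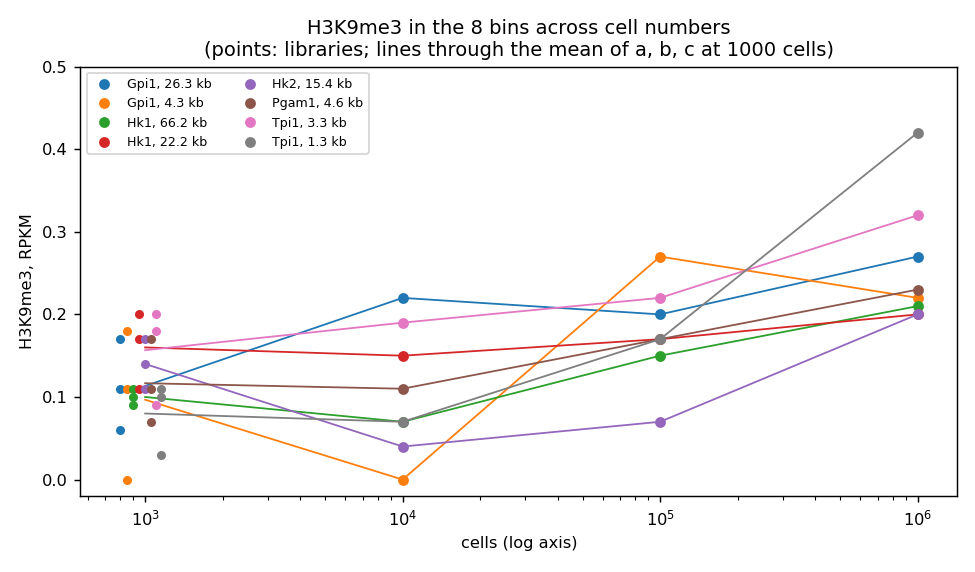
H3K9me3 (RPKM) in the 8 bins against the number of cells on a log axis; points are libraries (3 at 1000 cells, spread sideways for legibility, and 1 at each other number) and lines run through the mean of the 3. The library of 1000000 cells is above all libraries of 1000 cells in 7 of 8 bins, and no slope passed the test.

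H3K27me3 in the bins was also under nucleosome density. At 1000 cells its 1 library was below both panH3 libraries in 8 of 8 bins, as in 43.3% of all bins, and 5 of 8 were over 1 log2 unit below the panH3 mean (8.86% of all bins). The median difference was -1.19 over the 8 bins and -0.82 over bins in genes at 10 RPKM or more, with no test. The 5 bins past 1 log2 unit held only 1 to 6 reads of H3K27me3 at 1000 cells, so their order carries no weight. The lowest was the Tpi1 bin nearest the start, at 0.04 RPKM (1 read). H3K27me3 in this bin was 0.18 RPKM (7 reads) in 100000 and 0.33 RPKM (10 reads) in 10000 cells. This bin ends 312 bp from the start of Tpi1 and is, of the 8, the closest to a start site. The 2 bins least below panH3 were the inner Gpi1 bin, at 0.31 RPKM against a mean of 0.465, and the inner Hk1 bin nearer the start, at 0.27 RPKM against 0.430.

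The genes whose profile lay nearest to the members' median over 7 libraries (RNA, 3 of H3K27me3 and 3 of H3K4me3, Euclidean distance on log2(RPKM + 0.1), 20317 genes) were Arf4 at 0.40, Ndufb3 and Tet2 at 0.41, Gpatch2 at 0.45 and Zfp407 at 0.47. The members themselves lay further out, from 0.88 for Gpi1 to 4.74 for Hk1. The 5 genes were picked as the smallest distances, so that order carries no weight. The H3K27me3 values in the profiles lie at start sites or 3′ ends, by strand. After Hk1 the furthest member was Pgk1 at 2.79.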

How the data were processed

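The submitters' processing notes name mm9, BWA and SAMtools; their versions, the counter and duplicate filters are not given in the sources. The authors deposited RPKM values (per the file headers), 1 column for each library; panH3 columns carry no unit and were taken as RPKM. Other deposited columns, of exon and gene length in bp, gave only the exon lengths quoted. The start-site table's 2 columns of another series were not used. Whole-read steps in bins (2 kb) and windows (1 kb) gave depth; at least 99.99% of low values were whole. A count of 3 reads, the limit for a window at 0, is 0.181, 2.81 and 1.62 RPKM for H3K4me3 at 100000, 10000 and 5000 cells.

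Members and gene lists were chosen with earlier results of these data known; 2 genes of the list of other enzymes are not reported here and are left out of its counts and shares. Tests used limma 3.58.1 in R 4.3.3 (trend, robust, Benjamini-Hochberg threshold 0.05) on log2(RPKM + 0.1) in bins above 0 in at least 1 library compared. Other comparisons have 1 library per group, no p-value, and a threshold of 1 log2 unit; this scale understates changes of low values. The row with the highest mean stands for a gene. Genes named are all members, up to 4 highest and 4 lowest in RNA and 4 highest in H3K27me3 per list, isozymes of a step, and the 5 nearest profiles. Promoters were matched to transcripts where 1 start or the spacing of several allowed it. Alternatives were other pseudocounts, filters, scalings, weights and left-out libraries. Software: matplotlib 3.10.9, scipy 1.17.1, pandas 2.3.3, numpy 2.4.6, Python 3.11.15.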

Additional observations from a re-analysis of the deposited data

How the results depend on the processing

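The 8 bins touching a glycolysis gene were lower in H3K9me3 than panH3 under all 11 alternatives for that test, apart from the Hk1 bin that lost its call without panH3 library b; 87 of 88 values of single bins kept their call. Their median difference of -1.55 became -0.42 with a pseudocount of 1 and -1.97 with voom weights on recovered reads. With each library centred on its median, 20312 bins were higher and 18564 lower, against 14224 and 23158. No label pairs libraries of different antibodies by the letters a and b. The a minus b deviations of H3K9me3 and panH3 had a correlation of -0.0095 over 93575 bins. Counting error in single bins can hide a shared preparation, so this does not show that the letters are unrelated. A replicate block gave 13498 higher and 22529 lower bins, a median over the 8 bins of -1.55, and all 8 lower. Leaving out libraries gave 9759 to 16475 higher and 15521 to 25897 lower bins.

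Slopes: rising bins, 0 as reported, were 99 with a pseudocount of 1, 2054 with voom weights and 0 to 10 when a library was left out; the 10 were without the library of 10000 cells. Falling bins, 1 as reported, were 0 with no filter and 82 with voom weights. With voom weights 1 member bin rose, that of Tpi1 nearest its start (0.79 per 10-fold more cells, limma adjusted p 0.015). The median slope of 0.21 was 0.051 with a pseudocount of 1.

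With a pseudocount of 1, 0 members and 0% of genes were over 1 log2 unit higher in H3K27me3 at 10000 or 1000 cells, and 0% and 0.0318% of genes were lower. With it, 1.63% and 1.18% of genes were over 1 log2 unit lower in H3K4me3 at 10000 and 5000 cells. Over plus-strand genes alone, an alternative chosen after seeing the data, the median H3K27me3 difference of the members was -0.27 at 10000 and 0.66 at 1000 cells, against 0.12 and 0.33. Among genes with RNA above 0 the median was 2.56 RPKM, against 1.02 over all, and 3 members were in the top 5%. The mean of the Hk1 rows was 1.58 RPKM.

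H3K4me3 windows at 10000 and 5000 cells hold few reads, and 1 library per cell number gives no replicate error for H3K4me3, H3K27me3 or RNA.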
